A study of Mus musculus with 12 samples.

Results

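The limbs of mouse embryos that lack Lmx1b were compared with wild-type limbs at 13.5 days post coitum (dpc), by 4 of the 12 arrays of the series: 2 labelled knockout (KO) and 2 labelled wild type (WT). The arrays were chosen by their titles, which give the stage and the genotype. The other 8 arrays cover both genotypes at 11.5 and 12.5 dpc and entered the fit to share its estimate of the spread. KO embryos carried Lmx1b -/- and WT embryos Lmx1b +/+, all of strain C57BL/6. Each array read total RNA pooled from 6 limbs, and the replicates of a group came from different embryos. The series text describes the tissue at 13.5 dpc as the distal limb, that is, the zeugopod (forearm or lower leg) and the autopod (hand or foot), whereas the tissue label of these arrays names the handplate. Forelimbs and hindlimbs were both collected and are not separated in the labels. The sources used here do not name the deleted part of Lmx1b. A stage corresponds to 1 scan series that holds both genotypes, so genotypes are compared within a scan series.

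Lmx1b encodes a LIM homeodomain transcription factor. WNT7A from the dorsal ectoderm induces it in the dorsal mesenchyme of the limb bud, where it specifies dorsal fate. Without it, distal limbs develop with ventral structures on both sides, so that footpads form where nails, hair and dorsal tendons would be. By 13.5 dpc the mesenchyme is separating into cartilage, joints, tendons and loose connective tissue. By its title the study asked how gene expression changes as the limb becomes dorsal, and this comparison addresses the latest stage sampled.

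Levels are log2 values made by robust multi-array averaging (RMA), on which 1 unit is a doubling and the median of all values was 6.28. Differences are KO minus WT on the same scale, with the standard error (SE) of a limma fit to all 12 arrays, and adjusted p-values are Benjamini-Hochberg values over 18193 genes. The array labelled KO 13.5 dpc replicate 2 stood apart from its group. It differed from KO replicate 1 by a root mean square of 0.267 log2 units over all genes, against 0.148 between both WT arrays. It differed from the 4 arrays of 11.5 dpc by only 0.218 to 0.24. Among the genes that differed by at least 2 units between WT 11.5 and WT 13.5 dpc, 29 were lower at 13.5 dpc (0.159% of genes) and 33 higher (0.181%). Over the 29, the median level was 6.64 in KO replicate 1 and 8.22 in KO replicate 2, against 6.45 and 6.27 in WT and 8.79 to 8.99 at 11.5 dpc. Over the 33 it was 8.60 and 7.83 in KO, 8.88 and 8.89 in WT, and 6.09 to 6.69 at 11.5 dpc. Gene by gene, 26 of the 29 and 29 of the 33 lay between the ranges of the WT arrays of both stages in KO replicate 1, and 29 and 30 in KO replicate 2. The genes were chosen as those far apart between these same WT arrays, which by itself favours other arrays falling between them. On the medians, KO replicate 1 lay close to WT of 13.5 dpc and KO replicate 2 farther towards 11.5 dpc. Both KO arrays are therefore given separately throughout. Of the sex-linked genes, Y-linked Kdm5d read 2.88 and 4.80 in KO and 5.55 and 3.03 in WT, and Eif2s3y 2.89 and 4.65 against 5.44 and 3.44. Uty read 4.79 on both KO arrays and 5.23 and 4.26 in WT. All these Y-linked values lay below the median of all values, whereas Xist read 12.50 to 12.86 on all 4 arrays. The sex makeup of the pools was not tested.

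**Figure D1:**
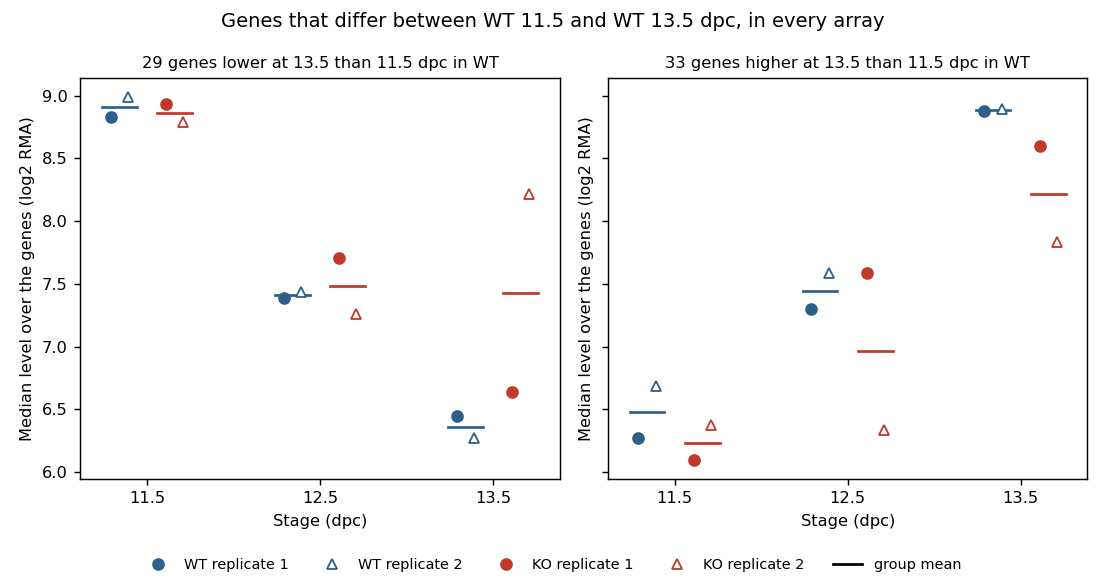
Median level (log2 RMA) of genes that differed by at least 2 log2 units between WT arrays of 11.5 and 13.5 dpc, 29 lower (left) and 33 higher (right) at 13.5 dpc, for each of the 12 arrays; points are arrays and bars group means. KO replicate 2 of 13.5 dpc sits at 8.22 on the left and 7.83 on the right, whereas KO replicate 1 sits at 6.64 and 8.60, close to the WT arrays.

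For the targeted gene the array carries 2 Lmx1b probe sets. On 1441729_at, the one used, the level was 7.48 in KO replicate 1, 8.88 in KO replicate 2, 10.27 in WT replicate 1 and 10.20 in WT replicate 2. Both KO arrays lay below both WT arrays, and KO replicate 1 was the lower by 1.40. The difference was -2.05 ± 0.35 and did not pass the test (adjusted p = 0.153). Without KO replicate 2 it was -2.75, on 1 KO array. Both KO values exceeded those of the KO arrays of 11.5 and 12.5 dpc, which ran from 5.61 to 7.02. On the dimmer probe set, 1421769_at, the KO arrays read 5.49 and 5.88 and the WT arrays 5.76 and 5.64, which overlap. Whether either probe set lies in the deleted part is not known here, so the remaining signal is no measure of the allele.

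A total of 5 genes were lower in KO limbs at an adjusted p under 0.05 (0.0275% of the genes tested) and 0 were higher (0%). In this limma fit, 1073 genes (5.9%) had an unadjusted p under 0.05, of which 781 were lower and 292 higher. The 5 were the keratan sulfate proteoglycan gene Kera, the forkhead factor gene Foxf2, the lipocalin gene Apod, Insyn2b, named as an inhibitory synaptic factor, and Nwd2, which encodes a NACHT and WD repeat protein. RNA came from whole limb pieces, so fewer cells of a type and less RNA per cell cannot be told apart. In WT all 5 were higher at 13.5 than at 11.5 dpc: Kera by 2.285, Foxf2 by 1.68, Insyn2b by 1.37, Apod by 1.05 and Nwd2 by 0.93. Their lower values in KO thus also lay on the side of the earlier stage, and Kera was among the 33 stage genes. The part of stage in these differences was not tested.

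Kera encodes keratocan, a small leucine-rich proteoglycan (SLRP) of cornea, tendon and other dense connective tissue. Its level was 6.27 and 7.69 in the KO arrays and 10.12 and 9.88 in the WT arrays. The groups did not overlap, and KO replicate 2 was the higher of the KO arrays, as for Lmx1b. The difference was -3.02 ± 0.33 (adjusted p = 0.0104), larger in size than that of any other gene tested. Without KO replicate 2 it was -3.73.

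Apod encodes apolipoprotein D, a lipid-binding protein of fibroblasts and glia. It read 7.02 and 7.29 in KO and 8.36 and 8.37 in WT, and the WT arrays were nearly equal. The difference was -1.21 ± 0.12 (adjusted p = 0.00642), and -1.35 without KO replicate 2. A second, separate Apod probe set, 1444564_at, was dim, at 4.94 and 4.87 in KO and 5.05 and 5.09 in WT, and gave a difference of only -0.16.

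Foxf2 encodes a factor of fibroblast-like mesenchyme, known from palate and gut. Its level was 4.68 and 4.85 in KO and 6.41 and 6.14 in WT, so both KO arrays were more than 1 unit below the lower WT array. The difference was -1.51 ± 0.13 (adjusted p = 0.00409, the smallest in the table). Without KO replicate 2 the difference was -1.59. The Foxf2 group mean was 6.27 in WT, just below the median of all values, and 4.76 in KO. A second Foxf2 probe set, 1447562_at, was dimmer still, at 3.73 and 3.93 in KO and 3.74 and 3.61 in WT, and gave 0.15.

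Insyn2b read 5.14 and 5.25 in KO and 6.82 and 6.62 in WT. The groups lay apart by more than 1 unit, with a difference of -1.53 ± 0.14 (adjusted p = 0.00642). Nwd2 read 4.22 and 4.15 in KO and 5.16 and 5.23 in WT, all below the median of all values. Its difference was -1.01 ± 0.11 (adjusted p = 0.00856). Without KO replicate 2 the differences were -1.58 for Insyn2b and -0.97 for Nwd2, as both KO arrays gave nearly the same level.

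**Figure D2:**
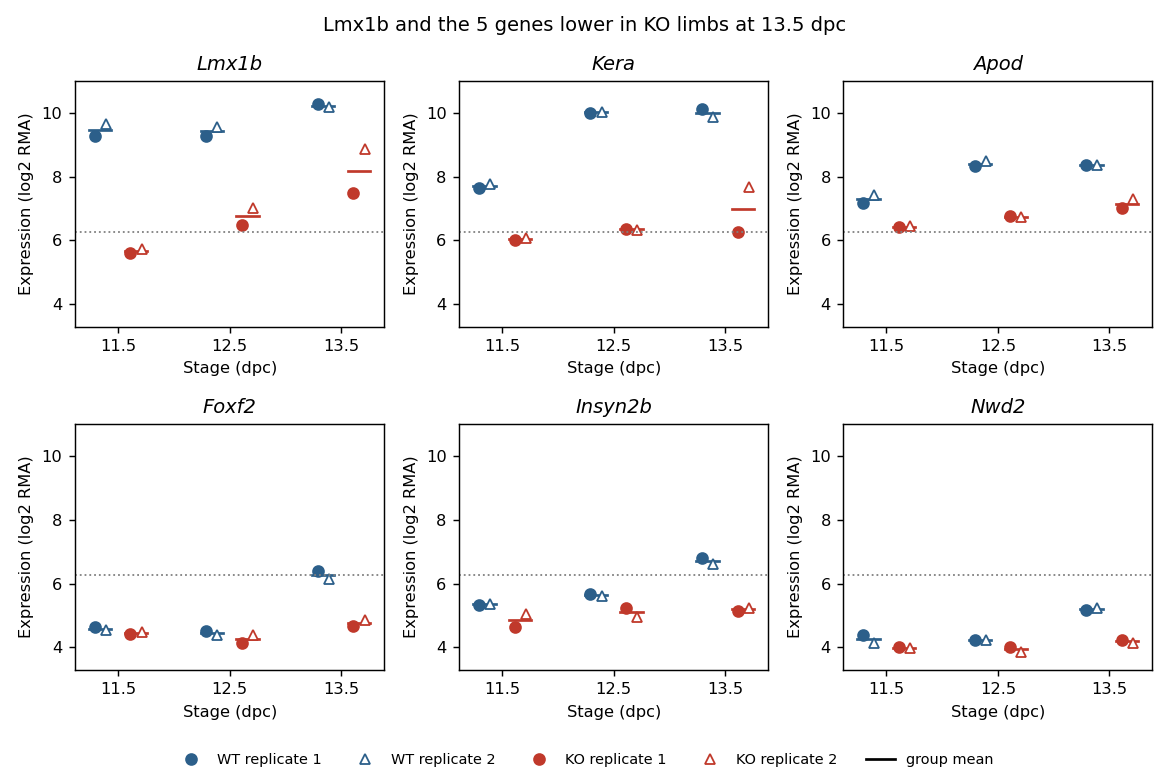
Level (log2 RMA) of Lmx1b and of the 5 genes lower in KO at 13.5 dpc, by stage and genotype; points are arrays, bars are group means and the dotted line is the median of all values (6.28). All 6 genes read lower on both KO arrays at all 3 stages, although for Foxf2 at 12.5 dpc the nearest arrays read 4.386 in KO and 4.388 in WT. Foxf2 and Nwd2 lie between 3.87 and 4.65 in all 8 earlier arrays, and exceed 5 only in the WT arrays of 13.5 dpc.

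Leaving out arrays moved the count. Each fit without 1 array left 1 array in that group, which then added no spread of its own, so these counts show only how unstable the result was. Without WT replicate 1 of 13.5 dpc 0 genes were lower, and without WT replicate 2 only Foxf2 was. Without KO replicate 1, 18 genes were lower and 38 higher, and without KO replicate 2, 4 were lower (0.022%) and 0 higher, with Lmx1b in place of Insyn2b and Nwd2. The arrays of 12.5 dpc enter this comparison through the shared spread, and there were 39 lower and 4 higher genes when either KO array of that stage was left out.

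The promoters of the called genes are shown because the genes were lower together in limbs without a homeodomain factor. They are the 250 bases before the annotated start, from RefSeq on GRCm38.p6, given 5′ to 3′ on the gene's strand, with the homeodomain core TAAT in capitals wherever it occurs on either strand (ATTA on the other). Kera lies at chr10:97606955-97607204 on the plus strand, Apod at chr16:31314809-31315058 on the minus strand and Foxf2 at chr13:31625566-31625815 on the plus strand.
Kera: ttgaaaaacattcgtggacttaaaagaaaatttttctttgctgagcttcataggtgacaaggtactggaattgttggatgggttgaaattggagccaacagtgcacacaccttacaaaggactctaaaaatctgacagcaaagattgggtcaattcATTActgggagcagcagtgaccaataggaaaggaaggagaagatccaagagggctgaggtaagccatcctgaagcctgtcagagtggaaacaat
Apod: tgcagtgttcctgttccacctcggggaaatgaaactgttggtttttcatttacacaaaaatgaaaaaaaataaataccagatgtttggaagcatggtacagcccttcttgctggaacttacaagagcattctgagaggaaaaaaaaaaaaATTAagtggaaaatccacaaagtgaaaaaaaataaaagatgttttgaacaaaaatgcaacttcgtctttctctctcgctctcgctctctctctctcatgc
Foxf2: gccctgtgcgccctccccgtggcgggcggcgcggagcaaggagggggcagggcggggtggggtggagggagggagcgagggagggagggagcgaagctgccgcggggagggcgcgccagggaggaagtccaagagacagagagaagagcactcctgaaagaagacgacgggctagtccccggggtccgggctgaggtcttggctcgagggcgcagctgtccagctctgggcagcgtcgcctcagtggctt
The window of Kera held 1 core and that of Apod held 1, while that of Foxf2 held 0. The Nwd2 window held 1, and Insyn2b was not matched in the table used. Over all 32851 RefSeq windows, 54.9% held at least 1 core, so 3 of 4 is no mark of these genes. The longer homeodomain motif TAATTA, a palindrome, was in 0 of the 4 windows and in 4.84% of all windows. A match describes letters in this window and is neither a site nor a cause, and no match speaks only of these bases.

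Both KO arrays lay below both WT arrays for 4066 genes (22.3%) and above them for 2104 (11.6%). In both KO arrays 15 genes (0.0824%) lay at least 1 unit below the WT mean, and 6 (0.033%) lay as far above. Besides Kera, Lmx1b, Insyn2b, Foxf2 and Apod, the 15 were Dcn, Hhip, Matn1, Efemp1, Slitrk1, Kcnab1, Gm3515, Cbln2, Grin3a and Slc40a1, of which none passed the test. Dcn encodes decorin and Efemp1 fibulin-3, both matrix proteins of connective tissue. Dcn read 9.42 and 9.50 in KO and 10.89 and 10.90 in WT (-1.43), and Efemp1 7.65 and 7.59 against 8.97 and 8.88 (-1.31). In both, the KO arrays were nearly equal. Slitrk1, a gene of neurite outgrowth, was at -1.31, Cbln2, which encodes a secreted synapse organiser, at -1.25, and Grin3a, which encodes a glutamate receptor subunit, at -1.20. The higher 6 were Hbb-bh1, Hoxc10, Frzb, Asb4, Igdcc3 and Calb2, of which none passed.

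**Figure D3:**
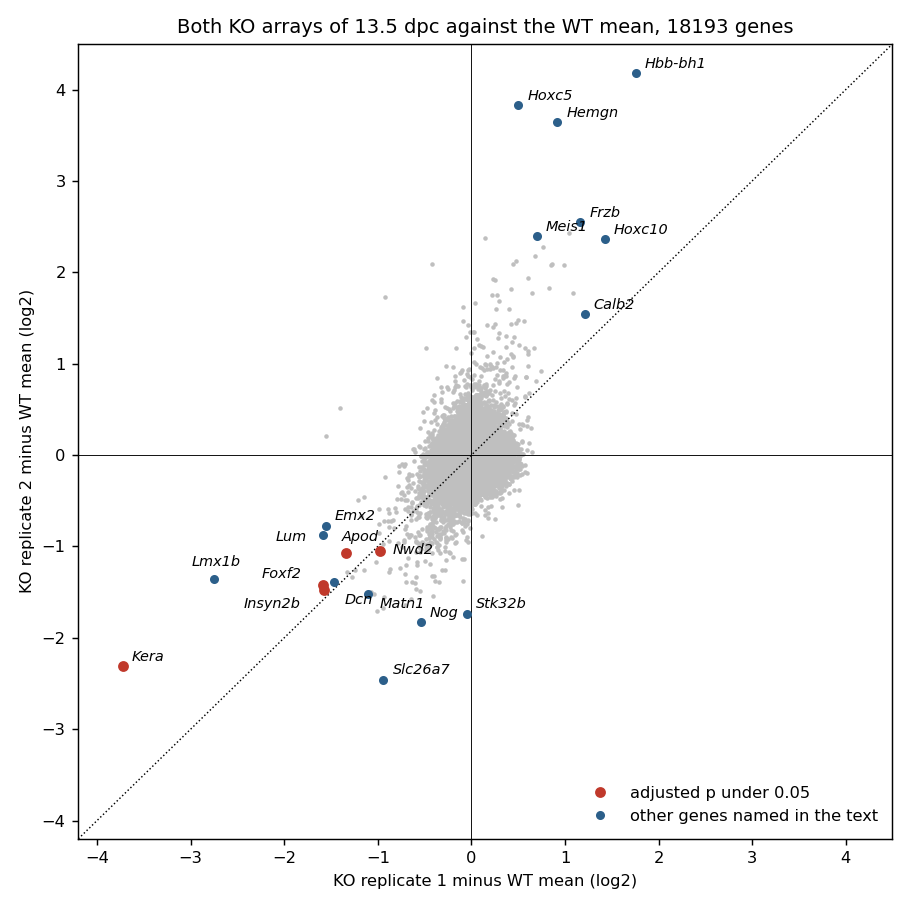
Difference of each KO array of 13.5 dpc from the mean of both WT arrays (log2), replicate 1 on the x axis and replicate 2 on the y axis, for 18193 genes (grey); red points passed the test, blue points are other genes named, and the dotted line marks equal differences. Foxf2, Insyn2b, Apod and Nwd2 lie near the line, whereas Hoxc5, Hemgn and Hbb-bh1 lie far above it.

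Several genes came near the threshold without passing. Tmtc2, which encodes a mannosyltransferase acting on cadherins, read 9.58 and 9.41 in KO and 10.27 and 10.27 in WT (-0.78, adjusted p = 0.0504). Abca9, a lipid transporter gene, read 5.85 and 5.80 against 6.79 and 6.67 (-0.91, adjusted p = 0.0639), but its other probe set gave 0.14. Dab1, the adaptor of reelin signalling, was at -0.76 (adjusted p = 0.0639). In none of the 3 did the groups overlap. Without KO replicate 2 the difference was -0.88 for Dab1, -0.69 for Tmtc2 and -0.88 for Abca9.

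Slc40a1 encodes ferroportin, the iron exporter. On the probe set used it read 7.22 and 7.06 in KO and 8.07 and 8.39 in WT (-1.09 ± 0.16, adjusted p = 0.0695). A second probe set, 1417061_at, gave -1.31 ± 0.12 and passed when all probe sets were tested (limma adjusted p = 0.00763). Both read the gene lower in KO on both arrays. Next came the receptor phosphatase gene Ptpro (-0.78), the WNT inhibitor gene Apcdd1 (-0.65), both at an adjusted p of 0.0735, and the potassium channel subunit gene Kcnab1 (-1.29, adjusted p = 0.08).

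Among genes with higher values in KO, Calb2, which encodes the calcium-binding protein calretinin, came nearest. It read 7.41 and 7.74 in KO and 6.27 and 6.13 in WT (1.38 ± 0.20, adjusted p = 0.0735). Hoxd8 (0.92, adjusted p = 0.0886), Gata6 (0.83, adjusted p = 0.112) and Hoxd9 (0.87, adjusted p = 0.217) are transcription factor genes. For Hoxc10, a posterior HOX gene active in hindlimbs, the KO arrays read 8.78 and 9.71 and both WT arrays 7.35 (1.89 ± 0.33, adjusted p = 0.157). Frzb, a secreted WNT antagonist of early cartilage, read 9.02 and 10.40 against 7.90 and 7.80 (1.86, adjusted p = 0.253). In Hoxc10 and Frzb the groups lay apart, but KO replicate 2 was higher than KO replicate 1 by about 1 unit or more.

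The 26 gene lists were read by counts and medians, beside the same over all genes: 22.3% with both KO arrays below WT, 11.6% above, and a median difference of -0.01. SLRPs are matrix proteins that bind collagen fibrils. Of 15 measured, 8 lay below WT on both KO arrays and 0 above, 1 passed (Kera), and the median was -0.32. Lumican, encoded by Lum, read 10.21 and 10.92 in KO and 11.83 and 11.77 in WT (-1.23), again with KO replicate 2 the higher of the KO arrays. Bgn, which encodes biglycan, was at -0.13, so the values of the family were uneven.

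Of 23 tendon and ligament genes, 17 lay below WT and 2 above, 1 passed (Kera, shared with the proteoglycans) and the median was -0.33. It was -0.19 in KO replicate 1 and -0.47 in KO replicate 2. Tnmd, the tenomodulin gene of maturing tendon, read 7.32 and 6.70 in KO and 8.18 and 8.33 in WT (-1.25). Mkx, a tendon transcription factor gene, read 9.36 and 8.39 against 9.66 and 9.62 (-0.77). Both were lowest in KO replicate 2. Scx, the factor of tendon progenitors, read 7.23 and 7.60 in KO and 7.46 and 7.18 in WT, which overlap. Of 18 fibrillar and associated collagen genes, 14 lay below WT and 1 above, 0 passed and the median was -0.41. It was -0.21 in KO replicate 1 and -0.55 in KO replicate 2.

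The cartilage list had the lowest median of the 26. Of 24 genes, 23 lay below WT on both KO arrays and 0 above, with a median of -0.58, but 0 passed. The median difference was -0.37 in KO replicate 1 and -0.89 in KO replicate 2, and 23 of 24 were lower in replicate 2 than in replicate 1. Acan, which encodes the large proteoglycan aggrecan, read 8.51 and 7.76 in KO and 9.09 and 9.20 in WT (-1.01). Matn1, a cartilage matrix gene, read 7.70 and 7.28 against 8.88 and 8.72 (-1.31). Col2a1, the main cartilage collagen, was at -0.51 (-0.19 in KO replicate 1 and -0.83 in KO replicate 2). Sox9, the chondrocyte master factor, was at -0.32 (-0.09 and -0.56). Acan was higher by 2.10 and Matn1 by 2.12 at 13.5 than at 11.5 dpc in WT, so the lower values of KO replicate 2 lay on the side of the earlier stage. The part of that array's stage-like profile in the list's median was not tested.

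Of 17 joint interzone genes, 11 lay below WT and 0 above, with a median of -0.19 (-0.08 in KO replicate 1 and -0.20 in KO replicate 2). Gdf5, the growth factor of joint interzones, read 10.68 and 9.75 in KO and 11.36 and 11.29 in WT (-1.11). Nog, which encodes the BMP antagonist noggin, read 8.20 and 6.91 against 8.65 and 8.84 (-1.19). Growth plate and bone genes had 7 of 15 below and 2 above, and the median was 0.05 in KO replicate 1 and -0.22 in KO replicate 2. Ihh, the hedgehog ligand of the growth plate, was at -1.01 (-0.71 in KO replicate 1 and -1.30 in KO replicate 2). None of these genes passed.

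**Figure D4:**
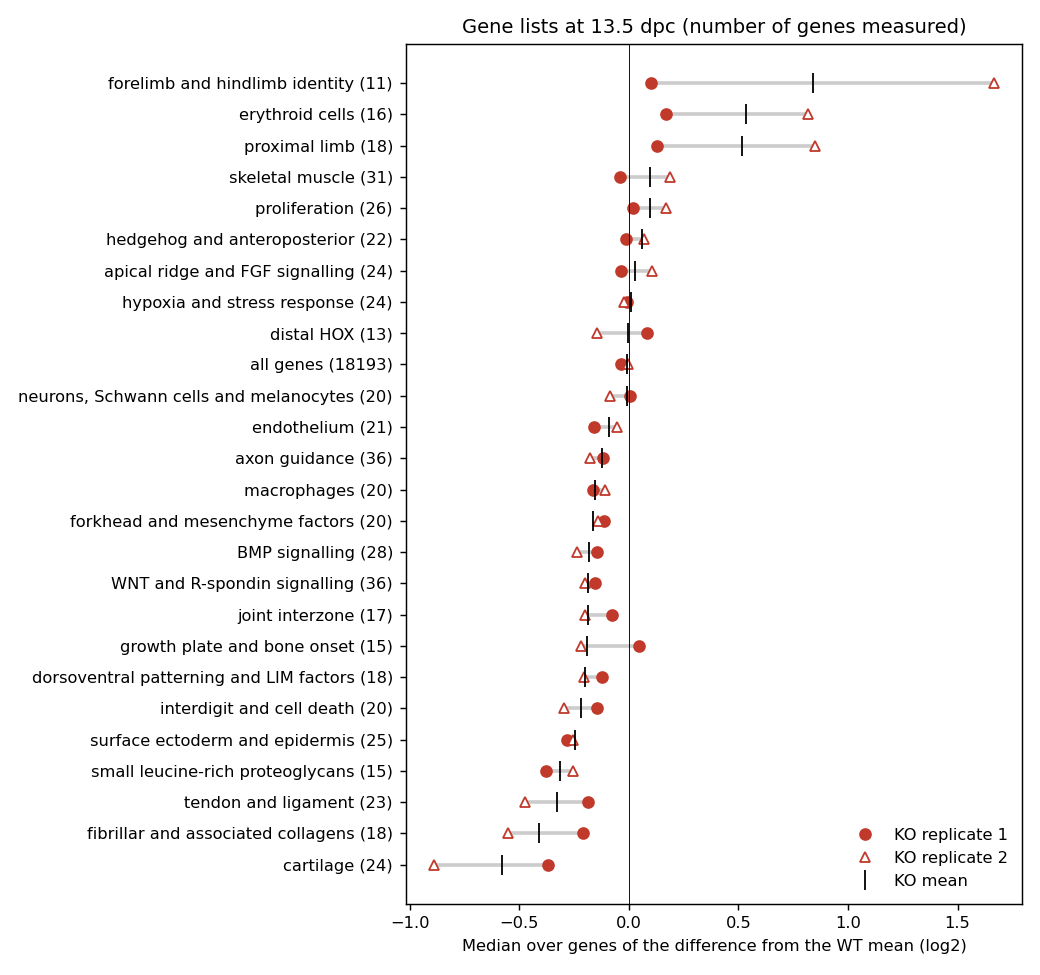
Median over the measured genes of each list except the sex-linked one, and over all genes, of the difference of each KO array of 13.5 dpc, and of their mean, from the WT mean (log2). The cartilage list is lowest by the KO mean (-0.58, with -0.37 and -0.89 in the KO arrays). The forelimb and hindlimb identity list has the widest gap (0.10 and 1.67), and the median of all genes lies near 0.

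Among dorsoventral patterning and LIM factors, 12 of 18 lay below WT, 4 above, and 0 passed. Emx2, a homeobox gene of the proximal limb and girdle, read 7.31 and 8.09 in KO and 8.92 and 8.80 in WT (-1.16 ± 0.25, adjusted p = 0.254). As for Lmx1b, Kera and Lum, KO replicate 1 was the lowest array. Wnt7a, the ectodermal inducer of Lmx1b, read 7.44 and 7.23 in KO and 7.22 and 7.02 in WT (0.21). En1, the ventral ectoderm factor, was dim, with values from 4.86 to 5.12 (-0.19). Lhx2 and Lhx9, LIM factors of the distal mesenchyme, were at -0.13 and 0.17. Of 20 forkhead and mesenchyme factors, 11 lay below, 4 above, and Foxf2 alone passed. Foxq1 was at -0.87 and Foxc2 at -0.53, neither past the threshold.

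In the hedgehog list, 8 of 22 genes lay below WT and 7 above, with a median of 0.06. The ligand gene Shh read 6.60 and 7.60 in KO and 5.85 and 5.68 in WT (1.33). Hhip, which encodes a hedgehog-binding inhibitor induced by the pathway, read 7.66 and 6.96 against 8.72 and 8.61 (-1.35). The pathway targets Gli1 (-0.51) and Ptch1 (-0.35) were also below WT on both KO arrays, as was Ihh, the ligand gene of the growth plate given above. None passed (adjusted p = 0.157 for Hhip and 0.254 for Shh and Gli1). In WT, Shh was lower by 2.59 and Hhip higher by 2.56 at 13.5 than at 11.5 dpc.

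Of 36 WNT and R-spondin genes, 22 lay below and 3 above, with a median of -0.19. The antagonist gene Dkk2 read 9.43 and 8.93 in KO, both below WT (-0.78). The agonist gene Rspo2 read 7.10 and 7.79 against 6.50 and 6.68 (0.85). Of 28 BMP genes, 15 lay below and 1 above, with a median of -0.18. The receptor gene Bmpr1b was nearly equal within each group, at 8.95 and 8.86 in KO and 9.51 and 9.50 in WT (-0.60, adjusted p = 0.0874). Bmpr1a, the related receptor gene, was at 0.06. Of 36 axon guidance genes, 15 lay below and 1 above (median -0.12). Apical ridge and FGF genes had 4 of 24 below and 6 above (median 0.03), and 12 of 20 interdigit genes lay below (median -0.22). In these 5 lists 0 genes passed.

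Position along the limb was read by HOX and proximal genes. Hoxd13, a marker of the autopod, read 12.94 and 12.37 in KO and a mean of 12.96 in WT, and Hoxa13 read 9.76 and 9.27 against 9.72 and 10.03. KO replicate 2 was the lowest array in both. Of 13 distal HOX genes, 2 lay below and 6 above (median 0.00). Of 18 proximal limb genes, 3 lay below and 10 above, with a median of 0.13 in KO replicate 1 and 0.85 in KO replicate 2. Meis1, a proximal factor, read 7.76 and 9.46 in KO and 7.12 and 7.01 in WT. Pax1, a marker of the shoulder girdle, read 6.32 and 7.88 against 6.47 and 6.34, with KO replicate 2 alone high. Whether the dissection differed for that array was not tested.

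Tbx5, the forelimb factor, read 9.63 and 9.93 in KO and 9.60 and 9.47 in WT. Tbx4 read 10.11 and 10.05 against a WT mean of 10.06, and Pitx1 9.88 and 10.30 against 10.17 and 10.06. Tbx5, Tbx4 and Pitx1 were thus read well above the median of all values in each pool. The hindlimb factors Tbx4 and Pitx1 overlapped between genotypes. In the 8 arrays of 11.5 and 12.5 dpc, Pitx1 read 5.76 to 6.28 and Tbx4 7.40 to 8.17, and Tbx5 read 10.14 to 11.38. Both hindlimb factors were thus lower in all earlier arrays of both genotypes, and KO replicate 2 lay with the other arrays of 13.5 dpc on them. Whether the share of hindlimbs differed between the pools of these stages was not tested. In the list of 11 identity genes, 1 lay below WT, 7 lay above and 0 passed. Hoxc10, given above, and Isl1, at 6.19 and 7.43 in KO and 5.39 and 5.28 in WT (1.48), were among those above. The list median was 0.10 in KO replicate 1 and 1.67 in KO replicate 2.

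Markers of other cells in the pieces were read in full lists. Erythroid genes had 0 of 16 below and 10 above, with a median of 0.17 in KO replicate 1 and 0.82 in KO replicate 2. Hbb-bh1, an embryonic globin gene, read 10.48 and 12.91 in KO and 9.05 and 8.40 in WT (2.97 ± 0.60, adjusted p = 0.253), whereas the embryonic globin gene Hbb-y read 13.88 and 13.86 in KO and 13.88 and 13.80 in WT (0.03). Of 31 skeletal muscle genes, 6 lay below and 6 above, with a median of -0.04 in KO replicate 1 and 0.19 in KO replicate 2. The 6 above were the myogenic factor genes Myf5 (0.98), Myod1 (0.76), Lbx1 (0.72), Myog (0.68) and Pax3 (0.39) and the sarcomeric actin gene Actc1 (0.32). The 6 below were Myh8 (-0.47), Myh7 (-0.46), Myf6 (-0.29), Ttn (-0.28), Mef2c (-0.21) and Tnnt3 (-0.18), so factor and contractile genes stood on both sides. Of 25 surface ectoderm genes, 18 lay below and 3 above, at medians of -0.28 and -0.26 in the KO arrays. Macrophage genes had 12 of 20 below and 1 above (median -0.15), endothelial genes 8 of 21 below and 1 above (-0.09), and neuron, Schwann cell and melanocyte genes 4 of 20 below and 2 above (-0.01). Proliferation genes had 3 of 26 below and 10 above (0.10), and hypoxia and stress genes 5 of 24 each way (0.01). None of these genes passed, and the part of cell makeup in the other results was not tested.

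Where the KO arrays differed most from each other, replicate 2 was the higher for Hoxc5, Hemgn, Rspo1, Hoxc4, Hbb-bh1, Nr2f1, Zic5 and Meis1, and the lower for Stk32b, Slc26a7, Aldh1a2, Nog, Papss2, Chodl, Gdf10 and Adgrb2. Hoxc5, an anterior HOX gene, read 5.63 and 8.96 in KO and 5.20 and 5.06 in WT. Hemgn, an erythroid nuclear protein gene, read 5.49 and 8.22 against 4.55 and 4.59. Slc26a7, an anion transporter gene, read 7.48 and 5.96 against 8.42 and 8.41. In WT, Hoxc5 was lower by 4.81, Hemgn lower by 4.02 and Slc26a7 higher by 3.90 at 13.5 than at 11.5 dpc, in each case the direction in which KO replicate 2 lay nearer to the earlier stage.

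The genotype difference at 13.5 dpc was set against that at each earlier stage by interaction contrasts in the same limma fit, and 0 genes passed against either (0% of genes). At an unadjusted p under 0.05 there were 1546 genes against 12.5 dpc and 377 against 11.5 dpc. Leaving out 1 array moved the count against 12.5 dpc to as many as 13 lower genes (without KO 12.5 dpc replicate 2) and 35 higher (without KO 12.5 dpc replicate 1), and that against 11.5 dpc to as many as 12 higher (without KO 13.5 dpc replicate 1). The KO arrays of 12.5 dpc differed from each other by a root mean square of 0.356, against 0.237 in WT. Tissue with the girdle was taken at the earlier stages and the hindlimb factors were lower there, so stage, dissection and limb makeup cannot be told apart in these contrasts. Foxf2 had the smallest adjusted p among the called genes, with the difference lower by 1.37 ± 0.18 than at 11.5 dpc (adjusted p = 0.125) and lower by 1.31 ± 0.18 than at 12.5 dpc (adjusted p = 0.339). Its level ran from 4.13 to 4.65 on all 8 earlier arrays of both genotypes, and only the WT arrays of 13.5 dpc exceeded 5. Nwd2 (3.87 to 4.40 earlier) had the same arrangement, with only the WT arrays of 13.5 dpc above 5. Insyn2b read 5.34 to 5.68 in earlier WT arrays and 4.66 to 5.25 in earlier KO arrays.

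For Kera the difference was -1.66 at 11.5 dpc, -3.67 at 12.5 dpc and -3.02 at 13.5 dpc. WT arrays read 7.65 and 7.77 at 11.5 dpc and 10.01 and 10.03 at 12.5 dpc, whereas KO arrays of both stages read 6.02 to 6.37. KO replicate 1 of 13.5 dpc lay in that KO range, and KO replicate 2, at 7.69, lay with WT of 11.5 dpc. Apod was at -0.88, -1.67 and -1.21, with KO arrays of 6.41 to 6.76 earlier. The change in difference between stages passed for neither gene. For Calb2 the difference was -1.19 at 11.5 dpc, -0.45 at 12.5 dpc and 1.38 at 13.5 dpc, with a change of 2.57 ± 0.29 between the first and last (adjusted p = 0.07).

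**Figure D5:**
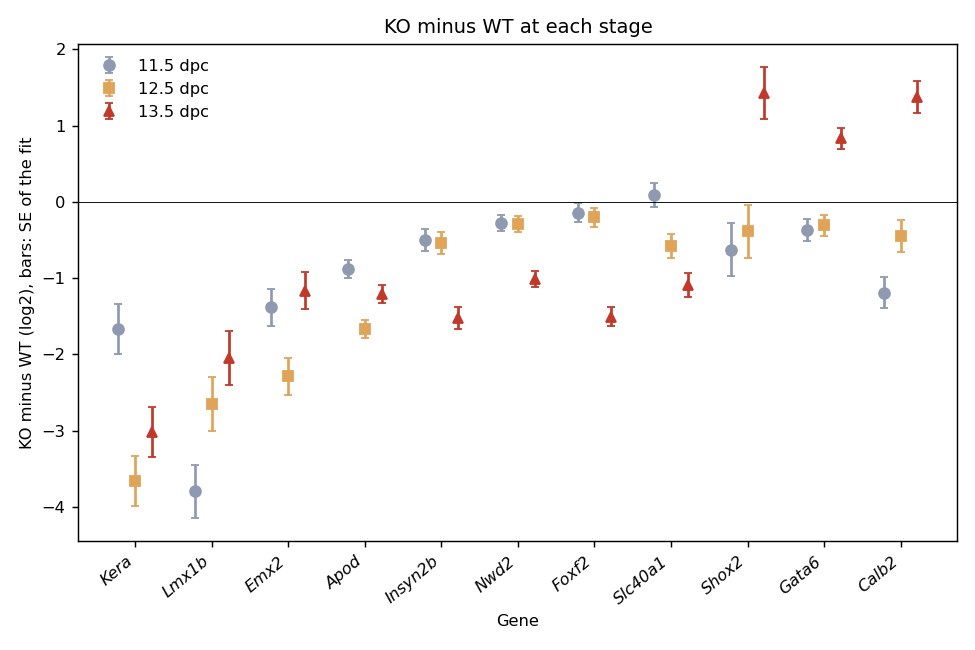
KO minus WT (log2) at 11.5, 12.5 and 13.5 dpc for 11 genes; points are differences of group means and bars the SE of the limma fit. Within each of Foxf2, Insyn2b and Nwd2 the difference at 13.5 dpc is the lowest of the 3 stages, and Calb2, Gata6 and Shox2 lie above 0 only at 13.5 dpc; no change between stages passed the test.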

How the data were processed

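The authors deposited log2 values, for which the submitters' processing notes name RMA without a version. The Affymetrix mouse arrays held 45101 probe sets. At each rank the sorted columns lay within 0.242 log2 units of each other. Scanner files were not used here.

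Probe sets were named from the platform annotation: 34945 named 1 gene, 932 several and 9160 none in the table used. RefSeq (GRCm38.p6) matched 34741 and changed 0 symbols. The probe set brightest on average stood for each gene, giving 18193 genes (9010 had several). A group-means model over the 12 arrays was fitted in R 4.3.3 by limma 3.58.1, using lmFit and eBayes, with 6 residual and 4.22 prior degrees of freedom. Tests were two-sided at a Benjamini-Hochberg adjusted p of 0.05; the script was tested on simulated data. With 2 arrays a group the number of arrays limits the precision, and p-values measure the spread between pools of different embryos.

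The comparison, the gene lists (576 entries, 545 measured) and the genes named were chosen with earlier results of these data known. The rule named Lmx1b with its probe sets, Kera, Foxf2, Insyn2b, Apod, genes past the threshold or with the smallest p and groups apart, genes differing most between the KO arrays, and up to 5 genes a list. The genes at least 1 unit from WT on both KO arrays, the values of Acan, Col2a1, Sox9, Scx, Bgn, Wnt7a, En1, Lhx2, Lhx9, Bmpr1a, Gli1, Ptch1, Pax1, Pax3, Actc1, Myh7, Myh8, Myf6, Ttn, Mef2c, Tnnt3, Hoxd13, Tbx4, Tbx5, Pitx1 and Hbb-y and the TAAT core search were added after values were seen or as markers. Alternatives changed the arrays, normalization, probe set choice, filter, prior and threshold.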

Additional observations from a re-analysis of the deposited data

Results flagged for a closer look

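Among the genes chosen by the naming rule, several had both KO arrays above both WT arrays at 13.5 dpc and below them at an earlier stage, or the reverse. The share of all genes with such an arrangement was not counted. The change in genotype difference was tested as an interaction in the limma fit over 18193 genes, and none of those named here passed (adjusted p from 0.07 to 1). Against 11.5 dpc, the difference was higher at 13.5 dpc by 2.57 for Calb2 (adjusted p = 0.07), 2.05 for Shox2, 1.80 for Isl1, 1.40 for Sall4, 1.40 for Fgf8, 1.23 for Gdnf, 1.20 for Gata6, 1.15 for Rspo2, 0.73 for Krt8, 0.67 for Tbx3 and 0.61 for Egln3. It was lower by that measure for the epidermal keratin gene Krt1 (-0.81), the macrophage genes C1qc (-0.57) and Ctss (-0.48), and Pth1r (-0.46), the parathyroid hormone receptor gene.

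Against 12.5 dpc, the difference was higher at 13.5 dpc by 1.82 for Calb2, 1.81 for Shox2, 1.67 for Nr2f1, 1.29 for Grem1, 1.14 for Gata6 and 0.68 for Prox1. It was lower for the desmosome gene Dsp (-1.09), the immediate early gene Fos (-0.87) and C1qc (-0.49). Calb2, Shox2, Gata6 and C1qc thus lay on the opposite side of WT from both earlier stages, although no change passed the test. At 13.5 dpc KO replicate 2 exceeded KO replicate 1 by 2.23 for Nr2f1, 0.33 for Calb2 and 0.17 for Gata6, and Shox2 read 10.16 in replicate 1 and 11.66 in replicate 2. The same gap was 1.525 for Fgf8, 1.235 for Isl1, 1.12 for Sall4 and 0.72 for Krt8, but 0.06 for C1qc.

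Outside the gene table, 10092 probe sets carry no gene name or several. When all 45037 probe sets were tested, 8 passed, and 1 of them was such a probe set, 1436889_at. It read 3.48 and 3.41 in KO and 4.65 and 4.70 in WT, a difference of -1.23 ± 0.11 (limma adjusted p = 0.00759), on levels below the median of all values.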

How the results depend on the processing

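Of the genes past the threshold, Kera, Apod and Insyn2b stayed past it in 21 of 26 alternatives, Foxf2 in 21 of 25 and Nwd2 in 19 of 25, with the largest adjusted p at 0.223 for Kera. All kept their direction in each alternative run. The alternative without dim genes held neither Foxf2 nor Nwd2. Abca9 alone reversed, to 0.14 with the probe set of the largest interquartile range. Leaving out 1 array at a time gave 0 to 39 lower and 0 to 38 higher genes. It gave 0 to 13 lower and 0 to 35 higher for the effect against 12.5 dpc, and 0 to 1 lower and 0 to 12 higher against 11.5 dpc. The labels do not say whether replicate numbers pair KO and WT samples. The correlation of same-numbered deviations was -0.09 at 13.5 dpc, 0.19 at 11.5 dpc and -0.12 at 12.5 dpc, which cannot settle it. With a replicate block, which takes up residual degrees of freedom, 0 genes were lower. The same held for the crossed block added after seeing the data. Other counts, lower and then higher, were 9 and 2 without replicate 2 of KO at both 12.5 and 13.5 dpc, which stood apart from their groups (8 and 1 against 12.5 dpc, 1 lower against 11.5 dpc), 10 and 1 with only the 4 arrays of 13.5 dpc, 12 and 2 with an intensity trend and robust prior, and 15 and 2 at an adjusted p under 0.1. Without all 4 arrays of 12.5 dpc, added after seeing the data, they were 35 and 3. Repeated quantile normalization and median centring each gave 1 higher gene. Against 11.5 dpc, 1 gene was higher with the trend, array weights, centring, the looser threshold and without 12.5 dpc, and 1 lower and 1 higher with the mean of probe sets and with the largest interquartile range. The causes were not tested. Foxf2 and Nwd2 had group means below the median of all values, and the effect of low levels on their differences was not tested.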
